A study of Mus musculus with 40 samples.

Results

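The 9 genes described here encode the core of the β-catenin destruction complex and its nearest nuclear partners, and were taken by symbol, with 9 of 9 found once each among the 45706 genes of the deposited tables. Apc, Axin1 and Amer1 encode scaffold proteins of the complex, Csnk1a1 and Gsk3b its kinases, Btrc the ubiquitin ligase subunit that recognises its product, Ctnnb1 the substrate β-catenin, and Tcf7l2 and Bcl9 nuclear partners of β-catenin. There were 40 libraries, 4 for each of 10 combinations of a sorted cell type and its source. Epithelial cells (CD45-, EpCAM+), stromal cells (CD45-, EpCAM-), neutrophils (CD11b+, Ly6G+) and monocytes (CD11b+, Ly6C-high, Ly6G-) had been sorted from colon tumors. Healthy colon gave epithelial and stromal cells, and blood of both kinds of mice gave neutrophils and monocytes. Tumor-bearing mice carried the transgene Cdx2CreERT2 and the allele Apc fl/fl, had a mixed background labelled C57Bl6/Sv129 in the lowest-numbered label, with another number after Sv in others, and had been given 1 injection of Tamoxifen at 25 mg/kg at 8 to 10 weeks of age. Cdx2CreERT2 is a Cre recombinase under a Cdx2 promoter that becomes active when Tamoxifen is given, and in colon epithelium it removes the floxed part of both Apc copies. Healthy mice were labelled C57Bl6, with no transgene and no agent, and the labels give no age for them, so tumor, transgene, agent and strain cannot be told apart in any comparison of the 2 kinds of mice. In 4 libraries the title names 2 animals, and some titles share an animal code across groups. One code stands in both arms of tumor against blood neutrophils, of tumor against blood monocytes and of healthy epithelium against healthy stroma, and 6 of the 8 libraries of the healthy blood comparison share codes. Of the 16 libraries of each interaction tested, 6 share codes in the epithelial against stromal one and 14 in the myeloid one. The edgeR fits treat the libraries as independent. Their p-values rest on the spread between libraries and take no account of shared animals.

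In resting cells APC and AXIN1 hold β-catenin beside casein kinase 1α, the product of Csnk1a1, which adds the priming phosphate, and glycogen synthase kinase 3β, which adds the next ones. The phosphorylated protein is bound by β-TrCP, the product of Btrc, and degraded. When Wnt ligands bind their receptors, or when APC is lost, β-catenin accumulates, enters the nucleus and binds TCF and LEF factors together with BCL9, and genes such as Axin2, Nkd1 and Notum are transcribed, several of which dampen the pathway. This control acts on protein, whereas the values below are RNA levels. Loss of APC starts most intestinal adenomas. At cell junctions β-catenin also ties E-cadherin, the product of Cdh1, to the cytoskeleton.

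Depth ranged from 10717873 to 38002939 counts on genes per library, and mitochondrial genes took 5.34% to 83.9% of them. Levels are given as RPKM, read numbers scaled for transcript length and library size, and differences as log2 fold changes from the edgeR quasi-likelihood test on counts, with their standard error (SE) and a Benjamini-Hochberg adjusted p over all genes tested. Healthy colon epithelial replicate 4 stood apart, with mitochondrial genes at 83.9% of its counts, and it was the lowest of its 4 libraries for 9 of the 9 genes. The tumor stromal libraries held few transcripts of fibroblasts. The RPKM summed over 7 fibroblast markers was 6.03 to 24.1 in tumor stromal cells against 359 to 2017 in healthy stromal cells. Tumor stromal replicates 3 and 4 also held erythroid markers at a sum of 4514 and 1292 RPKM and neutrophil markers at 1598 and 542 RPKM. Healthy stromal libraries held erythroid markers at a sum of 4.26 to 2307 RPKM and neutrophil markers at 6.30 to 45.8 RPKM. Epithelial markers, given as their median level in percent of the tumor epithelial mean, reached 94.0% and 46.0% in tumor stromal replicates 1 and 2, 20.1% and 12.1% in replicates 3 and 4, and 80.8%, 13.8%, 17.4% and 5.01% in tumor neutrophil replicates 1 to 4. In healthy stromal replicates 1 to 4 the same level was 0.498%, 0.267%, 0.526% and 14.9%. In tumor monocytes it was 0.531%, 19.6%, 3.13% and 2.76%, and in every blood library it was at most 0.248%. In bulk libraries fewer cells of a type and less RNA per cell cannot be told apart.

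Promoter sequence is shown for Ctnnb1, which rose in 3 of the 4 comparisons of tumor cells, and for Tcf7l2, which had the largest rise of the 9 in monocytes, to show how its 2 annotated starts differ. Of the 9 genes, 4 had an entry in the RefSeq table of promoters for GRCm38.p6, namely Ctnnb1, Gsk3b, Tcf7l2 and Bcl9, with 6 start sites. Apc, Axin1, Csnk1a1, Btrc and Amer1 had none. Each window of 300 bases runs from 250 before to 50 after the start. Capitals mark 2 kinds of motif searched on both strands, the GC box GGGCGG, which overlaps no form of the other motif, and the TCF/LEF core CTTTG followed by any pair of the letters A and T, which has 4 forms.
Ctnnb1, chr9:120933150-120933449, plus strand: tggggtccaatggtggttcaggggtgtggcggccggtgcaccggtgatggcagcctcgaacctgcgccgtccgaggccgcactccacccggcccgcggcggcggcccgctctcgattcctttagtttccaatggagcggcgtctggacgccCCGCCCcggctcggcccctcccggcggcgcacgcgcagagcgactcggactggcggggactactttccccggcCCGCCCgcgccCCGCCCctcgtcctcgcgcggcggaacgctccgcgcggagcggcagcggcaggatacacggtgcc
Tcf7l2, upstream start, chr19:55741560-55741859, plus strand: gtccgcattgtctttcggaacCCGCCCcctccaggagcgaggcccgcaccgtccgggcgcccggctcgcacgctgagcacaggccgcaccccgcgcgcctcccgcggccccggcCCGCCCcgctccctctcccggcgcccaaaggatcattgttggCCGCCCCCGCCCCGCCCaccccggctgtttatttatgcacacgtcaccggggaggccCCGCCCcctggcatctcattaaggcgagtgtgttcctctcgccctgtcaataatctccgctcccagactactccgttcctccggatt
Tcf7l2, downstream start, chr19:55895071-55895370, plus strand: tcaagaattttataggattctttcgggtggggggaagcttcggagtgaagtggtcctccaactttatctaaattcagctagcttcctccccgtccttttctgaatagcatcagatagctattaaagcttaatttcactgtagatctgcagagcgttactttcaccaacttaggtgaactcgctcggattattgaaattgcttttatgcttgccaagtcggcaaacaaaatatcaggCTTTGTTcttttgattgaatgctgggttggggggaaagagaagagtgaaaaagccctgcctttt
The Ctnnb1 window printed held 3 GC boxes and no TCF/LEF core, as did the window of its second start, chr9:120933328-120933627, which overlaps the first and is not printed. The upstream Tcf7l2 window held 6 GC boxes, some of them overlapping, and no TCF/LEF core, and the downstream window held 1 TCF/LEF core and no GC box. The Gsk3b window held no match to either motif, and the Bcl9 window held 3 GC boxes. Of 32817 promoter windows of this length, 16.9% held a TCF/LEF core and 35.6% a GC box. The tables sum reads over each gene, so they do not show which Tcf7l2 start was used.

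Tumor epithelium was compared with healthy colon epithelium to describe the tissue in which Apc is deleted. Apc and Ctnnb1 were higher in tumor epithelial cells, and the other 7 genes did not pass the test. Beside them, 8 of 13 epithelial markers were lower in tumor epithelium and none was higher, with sums of 159 to 406 RPKM in tumor and 93.1 to 456 RPKM in healthy epithelium. Their part in the changes of Apc and Ctnnb1 was not tested. Apc lies at chr18:34220924-34322552 on the plus strand of mm10 (ENSMUSG00000005871). Its level was 5.97, 6.51, 6.02 and 6.31 RPKM in the 4 tumor epithelial libraries and 3.34, 2.52, 2.14 and 0.343 RPKM in the 4 healthy ones. The tumor libraries were closely spaced and lay above all healthy libraries. The log2 fold change was 1.13 (SE 0.31, edgeR adjusted p = 0.0228). Counts summed over the whole gene cannot show the loss of an exon, and a transcript that lacks the floxed exon still adds to them, so the level of Apc does not check the deletion. The deletion itself was not analysed here.

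The call for Apc depended on single libraries. It was lost when any of 5 of the 8 libraries was left out, namely healthy replicate 2 or 3 or tumor replicate 1, 2 or 4, with edgeR adjusted p-values of 0.0511 to 0.0713, while the log2 fold change stayed between 0.99 and 1.51. Without healthy replicate 4, the library with the highest mitochondrial share, the call was kept. Scaled so that the nuclear genes of each library sum to the same total, an alternative chosen after the data were seen, the mean of Apc was 74.3 ± 4.09 in tumor and 22.5 ± 13.4 in healthy epithelium (SD, n = 4 each, in RPKM rescaled this way), again without overlap.

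Ctnnb1 encodes β-catenin and lies at chr9:120929216-120960507 on the plus strand of mm10, where it overlaps Ulk4 and 4930593C16Rik on the other strand and Mir7090. Its level was 27.0, 23.6, 55.2 and 31.6 RPKM in tumor epithelium and 13.03, 17.2, 22.2 and 3.45 RPKM in healthy epithelium. No tumor library fell into the healthy range, although the lowest tumor value and the highest healthy value were close. The log2 fold change was 0.75 (SE 0.18, edgeR adjusted p = 0.0130), and the call was kept when each of the 8 libraries was left out in turn (adjusted p 0.0143 to 0.0489).

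Btrc, for the substrate-recognition subunit, was at 0.563, 0.641, 0.713 and 0.467 RPKM in tumor and at 0.259, 0.383, 0.398 and 0.0563 RPKM in healthy epithelium. The ranges did not overlap, but the fold change missed the threshold (log2 0.69, SE 0.29, edgeR adjusted p = 0.115), and it passed only with DESeq2 (adjusted p = 0.0461). The kinase genes Gsk3b and Csnk1a1 differed by log2 0.05 and 0.03, the smallest differences of the 9. Axin1, Bcl9 and Amer1 had log2 differences of 0.61, 0.62 and 0.26, and Tcf7l2 alone had a lower fitted level in tumor (log2 -0.46, edgeR adjusted p = 0.151). Of the 9 genes, 2 passed adjusted p 0.05, both higher in tumor, beside 22.6% of the 16085 genes tested. With an absolute log2 fold change above 1.5 as well, the threshold of the study, 0 of 9 passed, beside 15.4% of all genes. The median log2 fold change was 0.61 over the 9 genes and -0.01 over all genes tested.

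**Figure D1:**
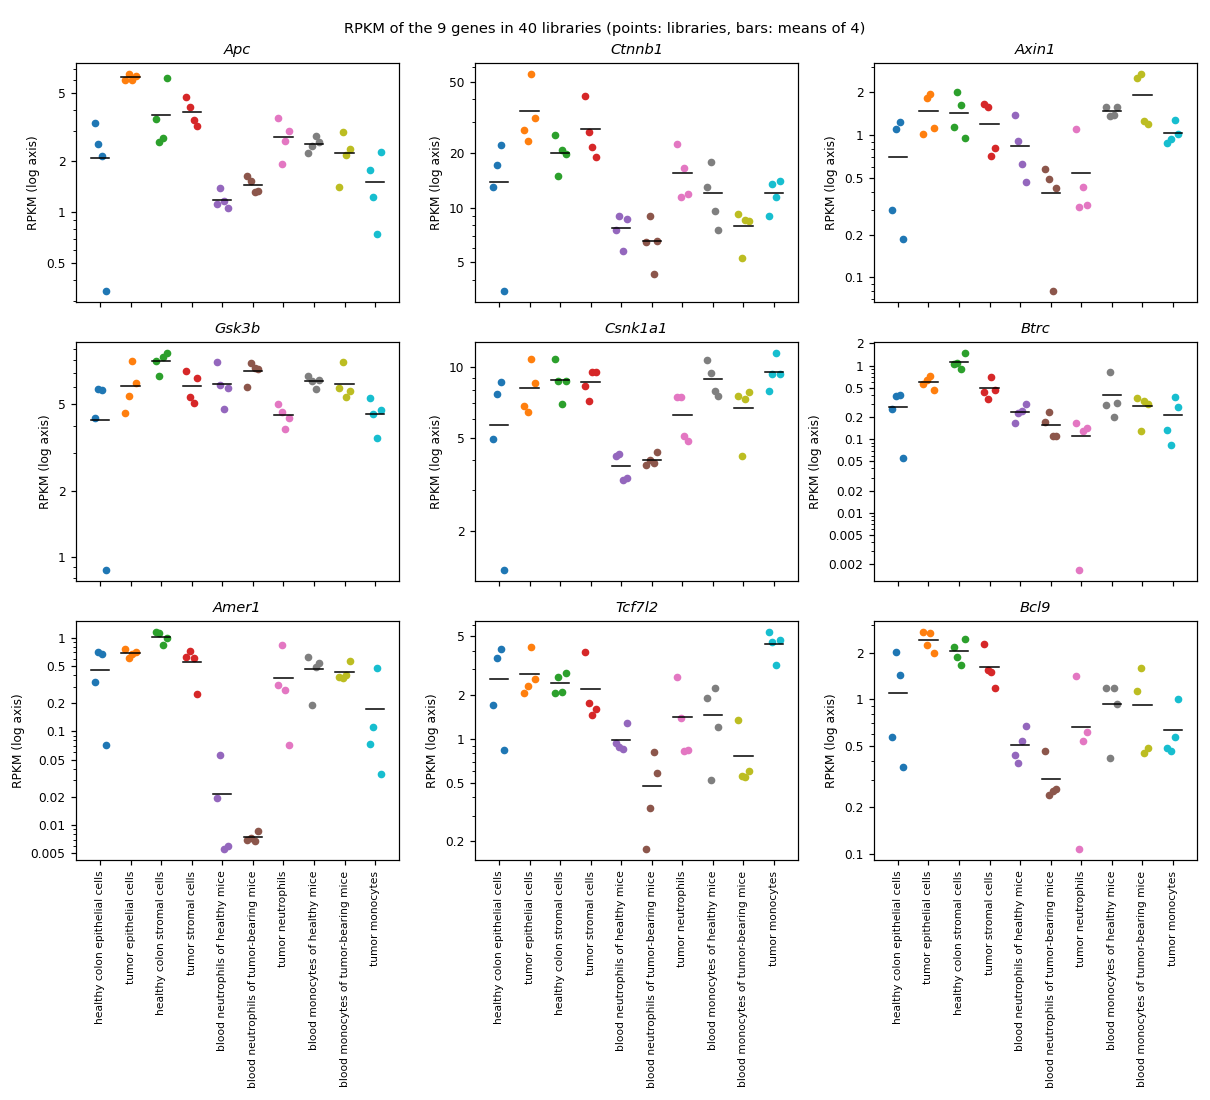
RPKM on a log axis for each of the 9 genes in 40 libraries, with points for libraries and bars for the means of 4. Apc is highest in tumor epithelial cells, Tcf7l2 is highest in tumor monocytes, and Amer1 is near 0.01 RPKM in blood neutrophils.

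Of 23 listed partners of the complex, 20 were tested in epithelium and 5 rose, with none lower. This was 25% of those tested, near the 22.6% of all genes called in this comparison. They were Axin2 (log2 2.57, edgeR adjusted p = 3.4e-05), a scaffold and target of the pathway, Tnks2 (1.12, 0.000427) and Tnks (1.27, 0.000874), the tankyrases that mark AXIN for degradation, Fbxw11 (0.73), a paralog of Btrc, and Csnk1e (1.54), a casein kinase. Among 16 nuclear partners 7 passed (43.8%), 5 higher and 2 lower. Lef1 (log2 5.92, edgeR adjusted p = 1.37e-05), Tcf7 (4.18, 4.62e-05) and Pygo1 (4.15, 0.00739) led them, whereas Tcf7l1 (-2.002), a TCF factor known as a repressor, and Tle4 (-0.86), a corepressor, were lower. Of 19 feedback and target genes 15 passed (78.9%), 14 higher and only Ephb2 lower (log2 -0.77). Axin2, Tcf7 and Lef1 stand in more than 1 of these lists. The median log2 fold change was 0.37 for the partners of the complex, 0.39 for the nuclear partners and 2.23 for the feedback and target genes. Of 7 adhesion partners only Cdh5, for the cadherin of endothelial cells, passed (log2 4.62, edgeR adjusted p = 0.00563), while 5 endothelial markers summed to 4.35 to 4.65 RPKM in tumor against 0.0705 to 0.371 RPKM in healthy epithelium. The part of endothelial cells in that rise was not tested. Any gene near 0 in healthy epithelium entered these tests through its tumor libraries. The counts of these lists therefore describe the lists and support nothing further.

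In stromal cells none of the 9 genes passed adjusted p 0.05 in the edgeR test, beside 9.55% of the 19081 genes tested, and 2 of the 9 had an unadjusted p under 0.05. With the fold threshold the count was again 0, beside 8.4% of all genes. DESeq2 called 1 of the 9, Btrc. Btrc was at 0.442, 0.346, 0.706 and 0.470 RPKM in tumor stroma and at 1.04, 1.07, 0.908 and 1.49 RPKM in healthy stroma. All tumor libraries lay below all healthy libraries (log2 -0.87, SE 0.30, edgeR adjusted p = 0.104). Amer1, whose product anchors the complex at the membrane, showed the same separation on the RPKM scale, at 0.252 to 0.721 RPKM in tumor and 0.838 to 1.16 RPKM in healthy stroma, with a log2 fold change of -0.52 that did not pass (edgeR adjusted p = 0.426).

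Ctnnb1 was at 41.4, 26.5, 21.9 and 19.2 RPKM in tumor stromal replicates 1 to 4 and at 25.3, 15.0, 20.9 and 19.8 RPKM in healthy stroma. The groups overlapped, and the tumor libraries ran in the same order as their epithelial marker levels. The log2 fold change was 0.81 (edgeR adjusted p = 0.147), and without both libraries highest in epithelial markers it was 0.31 (adjusted p = 0.543). Ctnnb1 passed in 1 of 8 alternatives, the model of all 40 libraries (edgeR adjusted p = 0.0468). Apc ran in the same order, at 4.78, 4.13, 3.49 and 3.19 RPKM, against 2.60 to 6.14 RPKM in healthy stroma. The part of epithelial RNA in these values was not tested.

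Feedback and target genes of the pathway passed in stroma for 11 of 19 (57.9%), beside 9.55% of all genes tested. All 11 were higher in tumor, led by Lef1 (log2 4.15), Sp5 (5.89) and Wif1 (7.18). Any gene near 0 in healthy stroma entered the test through its tumor libraries, so this count describes the list and supports nothing further. The median log2 fold change of the list was 3.15. No destruction complex partner of 21 tested passed in edgeR, with 4 at an unadjusted p under 0.05 and a median of 0.22. Among 16 nuclear partners Lef1 rose and Tcf7l1 fell (log2 -1.88, edgeR adjusted p = 0.0495). Of the 13 epithelial markers 4 also passed, all higher in tumor stroma, Cdh1 (log2 5.76) among them, which is an adhesion partner too. Their RPKM summed to 31.6 to 248 in tumor stroma and 2.51 to 25.1 in healthy stroma, and no epithelial marker was at 0 in all libraries of either group. The part of epithelial RNA in the changes of these lists was not tested.

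Whether the change with tumor state differed between epithelium and stroma was tested as an interaction over 16 libraries. Btrc alone passed, with a difference of changes of 1.56 on the log2 scale (SE 0.39, edgeR adjusted p = 0.0138), beside 15.1% of 20901 genes. Its fitted change was 0.69 in epithelium and -0.87 in stroma, neither of which passed on its own. The call was kept when each of the 16 libraries was left out in turn and with the animal as a block in limma-voom, an alternative chosen after the data were seen (adjusted p = 0.0244). It was lost in the model of all 40 libraries (log2 1.59, edgeR adjusted p = 0.194) and without both epithelial-marker-high tumor stromal libraries, also chosen after the data were seen (log2 1.39, adjusted p = 0.0649). For Apc the difference of changes was 0.70 (edgeR adjusted p = 0.381) and for Ctnnb1 -0.05 (0.953), so a difference between the tissues was not shown for either.

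**Figure D2:**
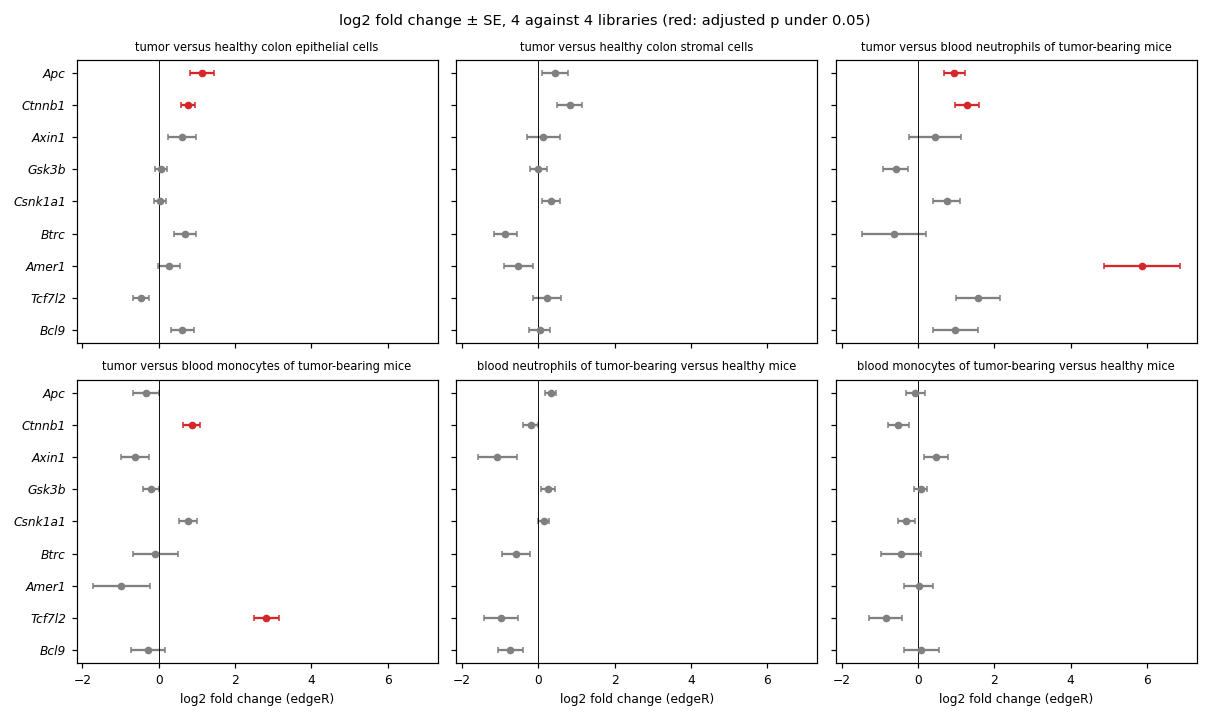
Points show the log2 fold change of each of the 9 genes in 6 comparisons from edgeR, bars the SE, and red an adjusted p under 0.05. Amer1 stands farthest from 0 in tumor against blood neutrophils, at 5.87, and Tcf7l2 in tumor against blood monocytes, at 2.82.

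Tumor neutrophils were set against blood neutrophils of the same kind of mice, so that transgene and agent are shared. Apc and Ctnnb1 were higher in tumor neutrophils, and Amer1 was called as well, with counts near the limit of detection in blood. Amer1 had 148, 426, 146 and 38.7 counts in tumor neutrophils and 4.55, 3.92, 2.97 and 4.68 counts in blood neutrophils. These were 0.316, 0.834, 0.276 and 0.0723 RPKM against 0.00698, 0.00736, 0.00675 and 0.00863 RPKM. Every tumor library was above every blood library, and the blood libraries sat near the limit of detection. Amer1 did not pass the filter on low counts in blood neutrophils alone and entered this test through its tumor libraries, so its call supports nothing further. Over summed counts the ratio was 38.2 per total count (95% exact interval 23.7 to 65.9, which covers counting error only). Tumor replicate 2 gave most of the tumor counts, and without it the ratio was 23.1 (14.2 to 40.2). The fitted log2 fold change of 5.87 (SE 1.00, edgeR adjusted p = 0.00299) rests on those few blood counts and lay between 4.56 and 6.23 when 1 library was left out.

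Apc was at 3.56, 1.91, 2.63 and 3.00 RPKM in tumor neutrophils and 1.63, 1.52, 1.32 and 1.34 RPKM in blood neutrophils. The groups did not overlap (log2 0.95, SE 0.26, edgeR adjusted p = 0.0300). Ctnnb1 was at 22.5, 11.4, 16.6 and 11.96 RPKM in tumor and 6.46, 8.98, 4.32 and 6.53 RPKM in blood neutrophils, again without overlap (log2 1.28, SE 0.32, edgeR adjusted p = 0.0185). Both calls were fragile. That of Apc was lost without any 1 of 6 libraries, which were the 4 blood libraries and tumor replicates 3 and 4 (adjusted p 0.0607 to 0.116), and that of Ctnnb1 without blood replicate 1, 3 or 4 (0.0660 to 0.0744).

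With the replicate number as a block the adjusted p was 0.111 for Apc and 0.0616 for Ctnnb1, and without a filter on low counts 0.115 and 0.0558. Without tumor neutrophil replicate 1, the library highest in epithelial markers, both were still called (log2 0.95 and 1.22, edgeR adjusted p = 0.0120 and 0.0156). In replicate 4, where the epithelial marker level was 5.01%, Apc was at 3.00 RPKM and Ctnnb1 at 11.96 RPKM, above all blood libraries, and Amer1 was at 0.0723 RPKM, the lowest of the 4. The part of epithelial RNA in these values was not tested.

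Tcf7l2 was at 2.63, 1.39, 0.826 and 0.838 RPKM in tumor and 0.177, 0.339, 0.809 and 0.588 RPKM in blood neutrophils with the groups just apart (log2 1.57, edgeR adjusted p = 0.0881). It passed with DESeq2 (adjusted p = 0.0490) and in the model of all 40 libraries (0.0114). Gsk3b went the other way on the RPKM scale, at 3.87 to 5.01 RPKM in tumor against 5.99 to 7.78 RPKM in blood, with a log2 fold change of -0.59 that did not pass. Btrc had 0.635 counts in tumor neutrophil replicate 2 and 51.1 to 58.7 in the other 3. Of the 9 genes, 3 passed, Amer1 among them and all higher in tumor, beside 17.9% of 13674 genes, and with the fold threshold only Amer1, beside 16.3%. The median log2 change was 0.95 over the 9 and 0.11 over all genes.

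Of 19 feedback and target genes, 15 of them tested, 13 rose in tumor neutrophils (86.7% of those tested). In this comparison 17.9% of all genes tested were called. Among the 13 were Znrf3 (log2 7.01), Myc (6.81) and Axin2 (7.86, edgeR adjusted p = 0.000772). Genes near 0 in blood entered the test through their tumor libraries, so these counts describe the list and support nothing further. Of 23 destruction complex partners, 22 of them tested, Axin2 and Csnk1d rose (Csnk1d log2 1.25), or 9.09% of those tested. Of 16 nuclear partners, 13 of them tested, Tcf7 rose (log2 4.23), and Pygo2 (-2.67) and Ep300 (-1.19), for a histone acetyltransferase, fell. Of 7 adhesion partners, 6 of them tested, 4 rose, led by Cdh1 (log2 7.77) and Ctnnd1 (7.09). The median log2 fold change was 0.05 for the partners of the complex, -0.36 for the nuclear, 3.55 for the adhesion and 6.10 for the target list. Epithelial markers moved with them, with 8 of 13 higher and 4 not tested, and summed to 13.4 to 182 RPKM in tumor against 0.665 to 1.58 RPKM in blood neutrophils. Of the 8 neutrophil markers 1 was lower in tumor, and their sum was 1927 to 12466 RPKM in tumor and 15784 to 20367 RPKM in blood. The part of epithelial RNA in the rise of these genes was not tested.

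**Figure D3:**
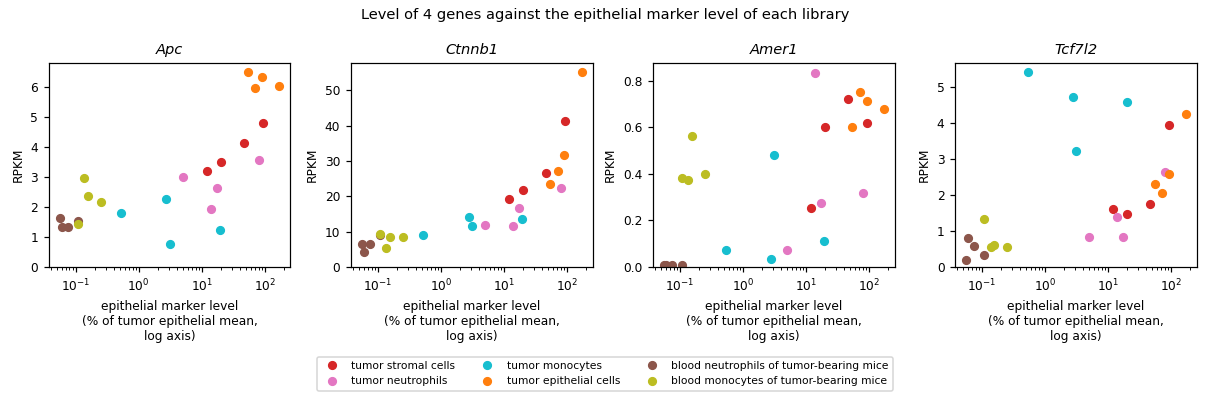
RPKM of Apc, Ctnnb1, Amer1 and Tcf7l2 on a linear axis against the epithelial marker level of each library on a log axis, in percent of the tumor epithelial mean, for the 6 groups from tumor-bearing mice. The 4 tumor monocyte libraries hold 3.21 to 5.39 RPKM of Tcf7l2 at marker levels of 0.531% to 19.6%.

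In monocytes the leading gene was Tcf7l2, for a TCF factor that binds β-catenin at DNA, with the promoters shown above. It was at 5.39, 4.56, 3.21 and 4.72 RPKM in tumor monocytes and at 1.34, 0.557, 0.554 and 0.604 RPKM in blood monocytes of tumor-bearing mice. The groups were far apart, and the mean was 4.47 ± 0.916 against 0.763 ± 0.384 RPKM (SD, n = 4 each). The log2 fold change was 2.82 (SE 0.32, edgeR adjusted p = 0.00026), and the call was kept without each library in turn (log2 2.69 to 3.18). The highest value was in tumor monocyte replicate 1, where the epithelial marker level was 0.531%, and Tcf7l2 averaged 2.79 RPKM in tumor epithelium itself. All 4 monocyte libraries were above that mean. The part of epithelial RNA in these values was not tested. A gene annotated inside Tcf7l2 on the same strand, Ppnr, shares its span, and reads of the pair may be split between them.

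Ctnnb1 was at 9.03, 13.5, 11.5 and 14.1 RPKM in tumor monocytes and 9.18, 5.29, 8.55 and 8.50 RPKM in blood monocytes. The lowest tumor library was replicate 1, with an epithelial marker level of 0.531%, and it fell below the highest blood library. Tumor replicates 2 to 4 had marker levels of 19.6%, 3.13% and 2.76%, and the part of epithelial RNA was not tested. The fold change passed (log2 0.86, SE 0.22, edgeR adjusted p = 0.0229). The call was lost without tumor replicate 2 or 4 (0.0544 and 0.0611) and with the replicate block (0.0706). Csnk1a1 was at 7.90 to 11.5 RPKM in tumor and 4.17 to 7.81 RPKM in blood monocytes and narrowly missed the threshold (log2 0.77, edgeR adjusted p = 0.0529). It passed with DESeq2 (adjusted p = 0.0326), limma-voom (0.0357) and in the model of all 40 libraries (0.0121).

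Apc was at 1.78, 1.23, 0.744 and 2.27 RPKM in tumor monocytes and 1.42, 2.97, 2.17 and 2.37 RPKM in blood monocytes, which overlapped (log2 -0.34, edgeR adjusted p = 0.547). Of the 9 genes 2 passed, both higher, beside 17.1% of 15280 genes, and only Tcf7l2 passed the fold threshold as well, beside 11.7%. Their median log2 change was -0.22, against -0.03 over all genes.

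Among the partners of the complex 4 of 23, 21 of them tested, rose in tumor monocytes. This was 19% of those tested, near the 17.1% of all genes called. They were Ppp2ca (log2 1.54), for the catalytic subunit of the phosphatase PP2A, Axin2 (5.36), Fbxw11 (1.02) and Csnk1d (1.01). Of 16 nuclear partners, 14 of them tested, Tle1 rose (log2 1.35), and Ep300 (-1.03) and Bcl9l (-1.43), a paralog of Bcl9, fell, together 21.4% of those tested. Of 7 adhesion partners, 6 of them tested, 3 rose, which were Cdh1 (5.96), Cdh5 (5.79) and Jup (2.61), for γ-catenin. Of 19 feedback and target genes, 13 of them tested, 8 rose, led by Wif1 (8.80), Nkd1 (5.98) and Cd44 (2.08). Any gene near 0 in blood monocytes entered the test through its tumor libraries. The counts of the adhesion and target lists therefore describe the lists and support nothing further. The median log2 fold changes of these lists were 0.33, 0.36, 1.59 and 2.74, in the same order. Of 13 epithelial markers, 6 of them tested, 4 rose, with a sum of 1.91 to 37.4 RPKM in tumor against 0.524 to 1.01 RPKM in blood monocytes. All 5 erythroid markers were lower in tumor monocytes, at a sum of 0.911 to 2.60 RPKM against 6.11 to 740 RPKM in blood. Of 8 neutrophil markers 4 were lower (36.3 to 69.1 against 118 to 299 RPKM), and of 6 monocyte markers 2 were lower (147 to 181 against 264 to 415 RPKM). The part of these markers' cells in the changes of the 9 genes and the lists was not tested.

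**Figure D4:**
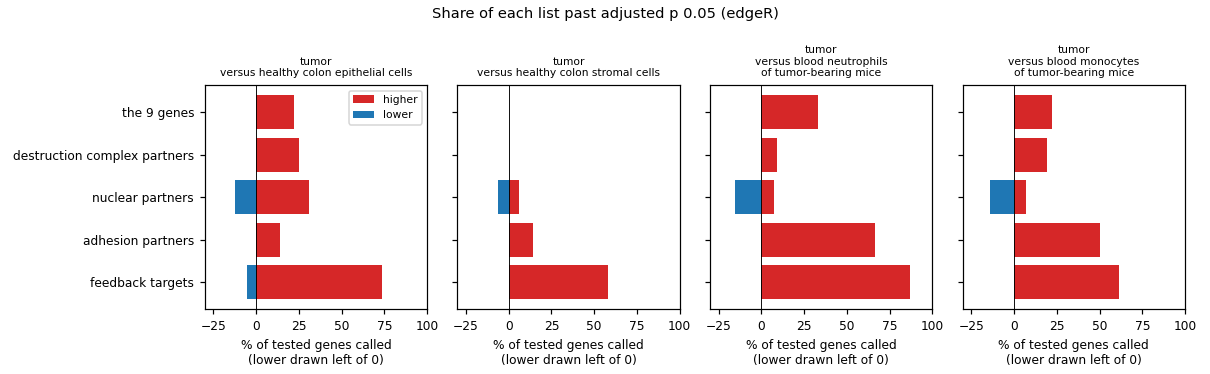
Bars give the percent of tested genes of each list past an edgeR adjusted p of 0.05 in 4 comparisons, higher to the right and lower to the left of 0. Feedback and target genes stand farthest to the right in all 4 panels, with 15 of 19, 11 of 19, 13 of 15 and 8 of 13 tested genes called. Of all genes tested, 22.6%, 9.55%, 17.9% and 17.1% were called. Genes near 0 in the reference group entered through their tumor libraries, so these counts describe the list and support nothing further.

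The change from blood to tumor was compared between the myeloid cell types as an interaction over 16 libraries. Amer1 alone of the 9 was called, with a difference of changes of 6.72 (log2, SE 1.29, edgeR adjusted p = 0.00803), beside 3.99% of 17465 genes. In monocytes Amer1 was at 0.0730, 0.110, 0.478 and 0.0351 RPKM in tumor and 0.382, 0.372, 0.398 and 0.562 RPKM in blood. In 3 of the 4 tumor libraries it was below all blood libraries, and the change did not pass (log2 -0.98, edgeR adjusted p = 0.408). The difference rests on the 2.97 to 4.68 counts of Amer1 in blood neutrophils, where it did not pass the filter on low counts by itself, so it describes these libraries and supports nothing further. For Tcf7l2 the difference of changes was -1.38 (edgeR adjusted p = 0.246), so its larger change in monocytes was not shown to differ from that in neutrophils.

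Blood cells of tumor-bearing mice were compared with those of healthy mice, which differ in transgene, agent and strain label too. In neutrophils 0 of 8 tested genes passed the edgeR test, beside 6.52% of 13360 genes, with 2 at an unadjusted p under 0.05, and Amer1 was not tested because of its low counts. DESeq2 also called 0. Tcf7l2 was lower in RPKM in each library of tumor-bearing mice (0.177 to 0.809) than in each healthy library (0.855 to 1.28), with a log2 fold change of -0.99 that did not pass (edgeR adjusted p = 0.233). In monocytes 0 of 9 passed by edgeR, with 0 at an unadjusted p under 0.05, and DESeq2 called 0 too, beside 0.216% of 15313 genes.

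Two-sided exact permutation tests of RPKM, over the 70 arrangements of 4 against 4 libraries, were made for the 9 genes in 6 comparisons. In 15 of the 54 tests the p was 0.0286, the smallest that this design allows, and after Benjamini-Hochberg adjustment over the 54 none was below 0.103. Among these 15 were Apc, Ctnnb1 and Btrc in epithelium, Btrc and Amer1 in stroma, and Tcf7l2 in tumor against blood monocytes.

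Healthy cell types were compared to describe where the genes are normally transcribed. Btrc was lower in healthy epithelium than in healthy stroma (log2 -1.28, SE 0.28, edgeR adjusted p = 0.00564), at 0.0563 to 0.398 RPKM against 0.908 to 1.49 RPKM without overlap. Tcf7l2 was higher in epithelium on the scale of the fit (log2 0.94, SE 0.25, edgeR adjusted p = 0.0148), although its RPKM, 0.843 to 4.09 in epithelium and 2.07 to 2.82 in stroma, overlapped. So 2 of 9 passed, beside 38.1% of 18468 genes. Neither was called in the model of all 40 libraries (adjusted p 0.0817 for Btrc and 0.0585 for Tcf7l2).

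Between blood neutrophils and blood monocytes of healthy mice 3 of 9 genes passed, beside 50.8% of 15033 genes. Gsk3b was higher in neutrophils on the scale of the fit (log2 0.72, SE 0.17, edgeR adjusted p = 0.00581). Its RPKM, 4.77 to 7.84 in neutrophils and 5.88 to 6.78 in monocytes, overlapped. The mean RPKM went the other way, at 6.175 in neutrophils and 6.393 in monocytes. Amer1 was lower in neutrophils (log2 -3.69, SE 0.71, edgeR adjusted p = 0.00196), with 8.55, 43.5, 4.08 and 3.63 counts against 80.6 to 369 counts in monocytes, through which it entered the test. Csnk1a1 was lower in neutrophils (log2 -0.46, edgeR adjusted p = 0.0290), and this call was lost without any 1 of 5 libraries, which were neutrophil replicates 2, 3 and 4 and monocyte replicates 1 and 2 (adjusted p 0.0627 to 0.0920). It was also lost with RLE size factors (0.0685), in the model of all 40 libraries (0.101) and with the replicate block (0.0662).

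Over the 10 groups the 9 genes differed in how widely their mean RPKM ranged. Amer1 went from 0.00743, at a few counts per library, in blood neutrophils of tumor-bearing mice to 1.03 in healthy stroma. Btrc spanned 10.2-fold, from 0.110 in tumor neutrophils to 1.13 in healthy stroma. Tcf7l2 spanned 9.34-fold, Bcl9 7.89-fold, Apc 5.24-fold, Ctnnb1 5.23-fold and Axin1 4.87-fold. The kinase genes were the most even, with 2.52-fold for Csnk1a1 and 1.86-fold for Gsk3b. Ctnnb1 had the highest mean of the 9 in tumor epithelium, at 34.4 ± 14.3 RPKM (SD, n = 4).

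The order of the Apc means ran from tumor epithelium (6.20 RPKM) through tumor stroma (3.90), healthy stroma (3.74), tumor neutrophils (2.78), healthy blood monocytes (2.53), blood monocytes of tumor-bearing mice (2.23), healthy epithelium (2.08), tumor monocytes (1.51) and blood neutrophils of tumor-bearing mice (1.45) to healthy blood neutrophils (1.18). Only the highest neighbours, tumor epithelium and tumor stroma, did not overlap, and the other 8 pairs did. Of the 9 neighbour pairs of each gene, 1 was apart for Apc, Btrc and Amer1 and 0 for the other 6. The exact permutation p of each pair that was apart was 0.0286, the smallest possible, or 0.257 after adjustment over 9 pairs. When only 1 pair is apart, this adjusted test cannot pass the threshold, so it does not decide whether those neighbours differ.

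Levels per length were also compared within a library, as 6 log2 ratios of paired genes with 0.1 RPKM added to both. The ratio of Tcf7 to Tcf7l2 changed sign in the epithelium, from -2.52 ± 0.68 in healthy to 1.77 ± 0.36 in tumor epithelium (SD, n = 4 each), with Tcf7 means of 0.304 and 9.53 RPKM and Tcf7l2 means of 2.55 and 2.79 RPKM. In monocytes the same ratio went from -1.93 ± 0.70 in blood to -3.67 ± 0.99 in tumor, without overlap. With 0.01 RPKM added, that monocyte ratio was lower in tumor by 1.44 and the groups overlapped. The ratio of Axin2, the induced scaffold, to Axin1, its paralog in the complex, was higher in tumor by 1.97 in epithelium, 3.34 in neutrophils and 2.99 in monocytes, each without overlap, and by 2.53 in stroma, where the groups overlapped. The size depended on the added constant. With 0.01 and 1 RPKM added it was 5.55 and 1.26 in neutrophils, the latter with overlap, and 4.89 and 1.06 in monocytes, whereas in epithelium it was 1.91 and 1.90. Epithelial marker levels reached 80.8% in tumor neutrophils, 19.6% in tumor monocytes and 94.0% in tumor stroma. The part of epithelial RNA in these ratios was not tested.

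The ratio of Ctnnb1 to Apc, substrate to scaffold, was 2.37 ± 0.57 in tumor and 2.74 ± 0.59 in healthy epithelium, which overlapped (exact permutation p = 0.400). In stroma, Gsk3a to Gsk3b was lower in tumor by 0.70 and Bcl9l to Bcl9 by 0.88, both without overlap. Fbxw11 to Btrc, the paralogous ligase subunits, was higher by 1.07 in tumor than in blood monocytes, and by 1.25 with overlap when 0.01 RPKM was added. Of 36 such tests 9 had the smallest exact permutation p of 0.0286, and none was below 0.114 after adjustment over the 36.

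**Figure D5:**
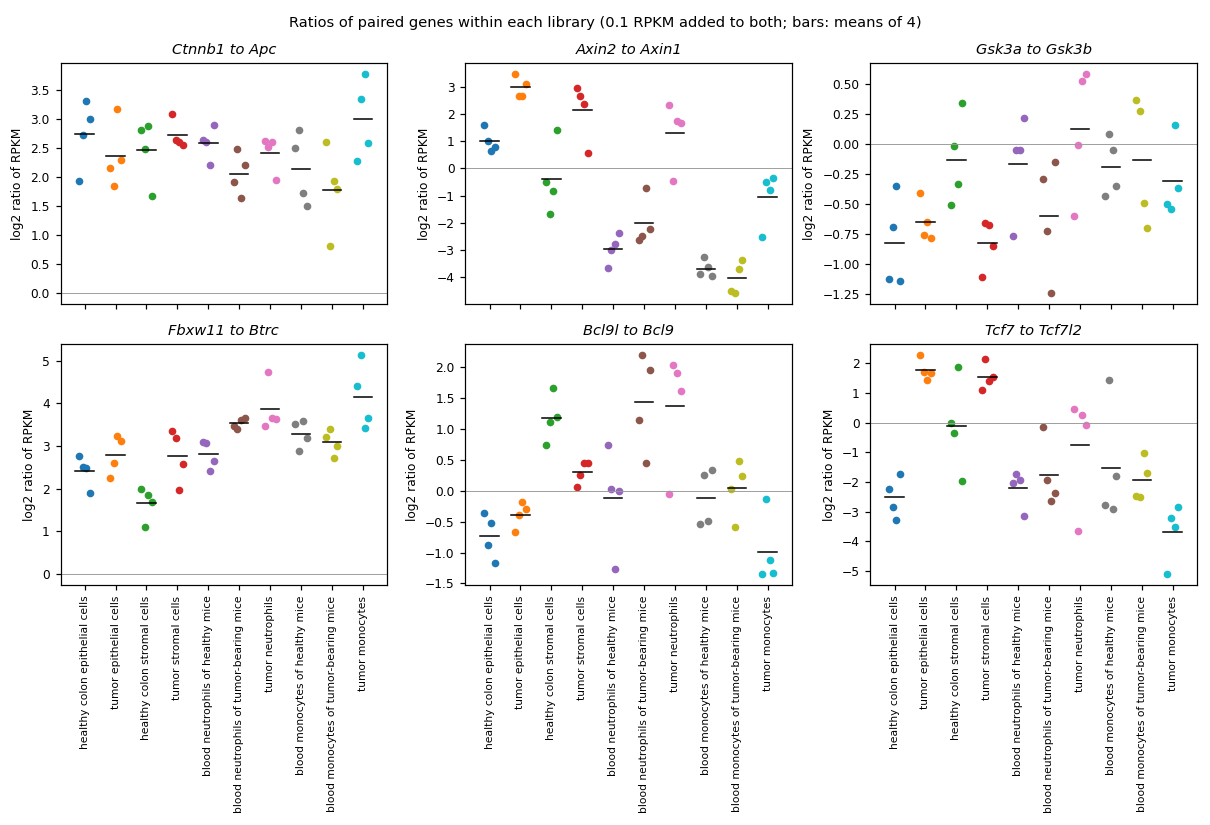
Each point is the log2 ratio of the RPKM of 2 paired genes in 1 library, with 0.1 RPKM added to both, for 10 groups, and bars are means of 4. The ratio of Tcf7 to Tcf7l2 lies at -3.28 to -1.72 in healthy epithelium and at 1.43 to 2.29 in tumor epithelium.

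Likeness across the 10 group means of log2(RPKM + 1) is given as a description over 8210 genes with a mean of at least 1 RPKM. The points share library preparation, depth and cell makeup. Among the 36 pairs of the 9 genes Pearson's r had a median of 0.59 and was highest for Apc and Ctnnb1 (0.90) and lowest for Gsk3b and Tcf7l2 (-0.39). The genes closest to Apc were Rdh10 (0.98), Slc20a2 (0.97) and Iffo2 (0.96), and those closest to Ctnnb1 were Bex3, Cdkn1c and Tmem9 (0.97 to 0.96). For Tcf7l2 they were Flrt3 (0.94), Sdc4 (0.93) and Tmbim1 (0.92). Irak1, Akap8 and Gon4l were closest to Axin1, Bptf, Dlgap4 and Phf3 to Gsk3b, and Srsf11, Dhx15 and Bdp1 to Csnk1a1. Mir7068, Cfap36 and Zbtb20 were closest to Btrc, Tshz1, Gm10093 and Pura to Amer1, and Prpf4, Cfl2 and Zfp664 to Bcl9.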

How the data were processed

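RNA from sorted cells was amplified and sequenced, and the reads were mapped by the authors to mm10 with Bowtie2 and counted per Ensembl gene with HTSstation. The annotation release and the use of strand are not given in the sources used here, so overlapping and antisense genes are uncertain. The authors deposited expected counts, estimated and not normalized, which were rounded here, and RPKM values scaled by transcript length and library. Symbols come from GENCODE M21.

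Each comparison used its 4 libraries against 4, genes kept by filterByExpr, TMM factors and edgeR 4.0.16 (R 4.3.3) with its robust quasi-likelihood fit, with Benjamini-Hochberg adjustment over all genes tested. Interactions used 16 libraries. The labels number 2 tumor stromal libraries 3, and 1 of them is called replicate 4 here. RPKM and ratios were compared by exact permutation. The fits were tested on simulated data. Alternatives were limma-voom (limma 3.58.1, the tool the study names), DESeq2 1.42.0, RLE size factors, no filter, all 40 libraries in 1 model, no mitochondrial genes, the replicate number as a block, leaving out each library or the libraries highest in epithelial markers, and, added after the data were seen, RPKM scaled to nuclear genes, limma-voom with shared animals as a block in both interactions, and the epithelial against stromal interaction without both epithelial-marker-high stromal libraries. The 9 genes and all lists were chosen with earlier results of these data known. Named genes were the 9, the genes of the 6 ratios, up to 3 called genes with the smallest adjusted p per list and comparison, and the 3 closest in likeness. Other called list genes (Csnk1e, Tcf7l1, Tle4, Ephb2, Csnk1d) were named after their values were seen.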

Additional observations from a re-analysis of the deposited data

Results flagged for a closer look

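In 7 of the 90 combinations of gene and group 1 library lay far from the other 3, where chance gives about 1 in 20. Axin1 was at 1.11 RPKM in tumor neutrophil replicate 1, against 0.312 to 0.433 in the others. Csnk1a1 was at 4.17 RPKM in replicate 2 of blood monocytes of tumor-bearing mice, against 7.32 to 7.81. Amer1 was at 0.562 RPKM in replicate 4 of the same blood monocytes, against 0.372 to 0.398, and at 0.478 RPKM in tumor monocyte replicate 3, against 0.0351 to 0.110. Tcf7l2 was at 3.92 RPKM in tumor stromal replicate 1, against 1.46 to 1.75, and at 1.34 RPKM in replicate 1 of blood monocytes of tumor-bearing mice, against 0.554 to 0.604. Bcl9 was at 0.461 RPKM in replicate 1 of blood neutrophils of tumor-bearing mice, against 0.239 to 0.265. Tumor stromal replicate 1 and tumor neutrophil replicate 1 were the libraries of their groups with the highest epithelial marker levels, at 94.0% and 80.8%, and the part of this in the values was not tested.

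The change with tumor differed between cell types for 2 genes by the edgeR interaction test. Btrc differed between epithelium and stroma by 1.56 on the log2 scale (adjusted p = 0.0138), a call that was lost in the model of all 40 libraries (0.194) and without both epithelial-marker-high stromal libraries (0.0649). Amer1 differed between neutrophils and monocytes by 6.72 (edgeR adjusted p = 0.00803), with 2.97 to 4.68 counts per library in blood neutrophils, where it did not pass the filter on low counts by itself.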

How the results depend on the processing

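Across alternatives the number of the 9 genes past adjusted p 0.05 changed as follows. In epithelium it went from 2 to 3 with DESeq2. In stroma it went from 0 to 1 with DESeq2 and to 1 in the model of all 40 libraries. In tumor against blood neutrophils it went from 3 to 1 without a filter, to 4 with DESeq2, to 6 in the model of all 40 libraries and to 1 with the replicate block. In tumor against blood monocytes the replicate block moved it from 2 to 1, and DESeq2, limma-voom and the model of all 40 libraries from 2 to 3. Between healthy blood neutrophils and monocytes it went from 3 to 2 with RLE size factors, in the model of all 40 libraries and with the replicate block. In the model of all 40 libraries it fell from 2 to 0 for healthy epithelium against stroma and from 1 to 0 for the epithelial against stromal interaction, which was also 0 without both epithelial-marker-high stromal libraries. Leaving out 1 library gave 1 to 3 in epithelium, 1 to 5 in neutrophils, 1 to 3 in monocytes and 2 to 3 between healthy blood cells, and no change in the others. The cause was not tested.

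Fold changes were recomputed for Apc, Ctnnb1 and every gene with an adjusted p under 0.15. Of these values, 484 kept direction and call, 33 lost a call, 8 gained one and 16 changed sign, none of these called in any fit. The sign changes were Ctnnb1 in the epithelial against stromal interaction, from -0.05 to 0.026 (limma-voom), 0.014 (DESeq2), 0.031 (limma-voom with the animal as a block) and 0.47 (without both stromal libraries) and between -0.18 and 0.20 when leaving out 1 library, Apc in blood monocytes (-0.25 to 0.12) and in healthy epithelium against stroma (-0.42 to 0.39), and Ctnnb1 between healthy blood cells (-0.0029 to 0.45). The ratio of Ctnnb1 to Apc in epithelium changed from -0.37 to 0.050 with 1 RPKM added. Scaled to nuclear genes, the log2 ratio of the means of Apc in blood neutrophils of tumor-bearing against healthy mice changed from 0.29 to -0.11.

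The replicate numbers name different animals in most pairs. With the animal as a block in limma-voom (estimated correlation 0.034 and -0.075), Btrc and Amer1 stayed the only genes of the 9 called in the 2 interactions. In the other comparisons too few animals were shared to estimate a correlation. Deviations of same-numbered libraries correlated between -0.15 and 0.24. Some same-numbered pairs share an animal code. For these, r was -0.093 in tumor against blood monocytes (replicate 1) and -0.11 in healthy epithelium against stroma (replicate 4). It was 0.23 in healthy blood neutrophils against monocytes (replicate 4). These correlations therefore do not decide whether the numbers pair the libraries. The replicate block left 2 genes called in epithelium and 2 in healthy epithelium against stroma. Amer1 in blood neutrophils is limited by counts of 2.97 to 4.68 per library.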
